A study of Homo sapiens with 12 samples.

Results

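The comparison set the WT line against the mutant line, both given tetracycline, with 3 arrays in each group and 6 of the 12 arrays of the series in all. Both are stable lines of HEK cells, an established human embryonic kidney line. The WT line carried tetracycline-inducible wild-type TRPM7. The mutant line carried TRPM7DKD, a form without the C-terminal kinase domain, which the study calls non-functional and set up as a control for the inducer. All 12 arrays came from cells grown in 10% serum with 5 ug/mL blasticidin. The 6 arrays compared came from cells given tetracycline for 72 hours, in an amount stated as 1 ug without a volume. The other 6 arrays, 3 of each line, were untreated. Total RNA, 5 ug a sample, was labelled and hybridised. The labels do not say whether a line was 1 clone, nor whether the 3 arrays of a group were separate cultures, so p-values measure the spread between these arrays, which may be technical. A difference between the lines therefore holds whatever the 2 lines differed in before induction as well as what induction did. The untreated arrays of the same lines are given beside it for many genes and lists, but not for all.

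TRPM7 is a cation channel of the plasma membrane and of intracellular vesicles, and its C-terminal end is a serine/threonine kinase. It carries magnesium, calcium and zinc, and cells that lack it need extra magnesium to grow. The design notes state that high expression of the channel damages and kills HEK cells, which is why the gene was placed under an inducer.

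The values were MAS5 signals, an Affymetrix summary of the probes for a transcript (a probe set), given here as log2. Differences are log2 WT minus mutant, so a positive value is higher in the WT line and 1 is 2-fold. A probe set was called when its limma p-value, adjusted over all 25989 tested probe sets, was under 0.05. A gene was represented by its probe set with the highest mean signal, which gave 12097 tested genes.

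TRPM7 itself had 5 probe sets. On the one with the highest signal the WT arrays with tetracycline read 8.19, 7.79 and 6.88 and the mutant arrays 8.53, 8.04 and 7.99. The groups overlapped, and the difference was -0.57 ± 0.30 (SE), which was not called (adjusted p = 0.166). Without tetracycline the same probe set differed by 0.07. The second tested probe set read 6.85, 5.73 and 6.33 against 7.53, 7.10 and 7.14, a difference of -0.96 that was not called (adjusted p = 0.219), and it was called lower in the WT line without tetracycline (-1.87, adjusted p = 0.0398). The 3 others were too dim to be tested and differed by -1.04, -0.62 and -0.61. None of the 5 read higher in the WT group than in the mutant group with tetracycline. Within the WT line, the means of the 2 tested probe sets were 8.47 and 6.19 untreated and 7.62 and 6.30 with tetracycline. Within the mutant line they were 8.39 and 8.06 untreated and 8.19 and 7.26 with it, so neither line showed a clear rise on these 2. Which part of the transcript each probe set matches, and whether it matches the transgene, was not analysed here, so these values do not check the labels.

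The 2 groups differed in spread and in signs of RNA quality. The median SD between replicates was 0.302 in the WT group and 0.174 in the mutant group. WT replicate 1 correlated with WT replicates 2 and 3 at 0.9398 and 0.933, and stood a median of 0.517 of the way from the mutant mean to the mean of the other WT arrays, over the 9815 probe sets called without it. The beta-actin log2 ratio of 3′ to 5′ probe sets was 1.11 ± 0.23 (SD, n = 3) in the WT arrays and 0.268 ± 0.019 in the mutant arrays (exact permutation p = 0.1, 2-sided, the smallest that 3 against 3 allows). Over both treatments, 6 against 6, the same ratio gave exact permutation p = 0.00216, the smallest possible, while the GAPDH ratio gave 0.779. The 18S ribosomal RNA control read 8.68 ± 0.79 in the WT arrays and 6.71 ± 0.75 in the mutant arrays (exact permutation p = 0.1). Over both treatments it read 8.73 and 6.95 (exact permutation p = 0.00216, the smallest possible). The line difference also moved with signal: its median was -0.15 for genes with a mean signal up to 8 and 0.17 for genes above 12, and after quantile normalization these became 0.044 and 0.0045. The part of RNA quality in the results below was not tested.

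Of the defining HEK markers, 11 of 11 measured were bright enough to be tested. IRS4, the insulin receptor substrate typical of HEK cells, read 13.1 to 13.9 in the WT arrays and 14.6 to 14.7 in the mutant arrays with tetracycline. Of the markers of kidney tubule, blood, fibroblast, endothelium and hepatocyte, 2 of 9, 1 of 7, 2 of 9, 1 of 7 and 0 of 6 measured were tested.

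With tetracycline the lines differed in 3658 of the 12097 tested genes, which is 30.2%. Of these, 1748 genes (14.4%) were higher in the WT line and 1910 (15.8%) lower, and 332 and 758 were so by at least 2-fold. Over probe sets 7830 were called (30.1%), 2980 higher (11.5%) and 4850 lower (18.7%). The median difference over all tested genes was -0.028. In 5155 genes (42.6%) the arrays of the groups did not overlap. Leaving out mutant replicate 2 lowered the count of called probe sets to 5183.

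Much of this difference was also measured in the untreated arrays, which share no array with the comparison. Without tetracycline 1663 genes (13.7%) were called, 796 higher (6.58%) and 867 lower (7.17%), of which 1083 were called with tetracycline too. These were 65.1% of the genes called without and 29.6% of those called with, and 1078 of the 1083 had the same sign. The 2575 genes called with tetracycline only by that threshold had, without it, a median difference of 0.23 where they were higher with it and -0.26 where they were lower, against 0.68 and -0.86 with it. These genes were chosen for passing the threshold with tetracycline and not without, so larger medians with it follow from the choice. The difference between the 2 line differences was itself called in 22 genes (0.182%), 11 in each direction (0.0909% and 0.0909%), and in 50 probe sets (0.192%), while 3970 probe sets (15.3%) had an unadjusted p under 0.05 for it. The 22 genes are those called on their probe set with the highest mean signal. Over all probe sets with 1 gene symbol, 45 of the 50 belonged to 44 genes.

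**Figure D1:**
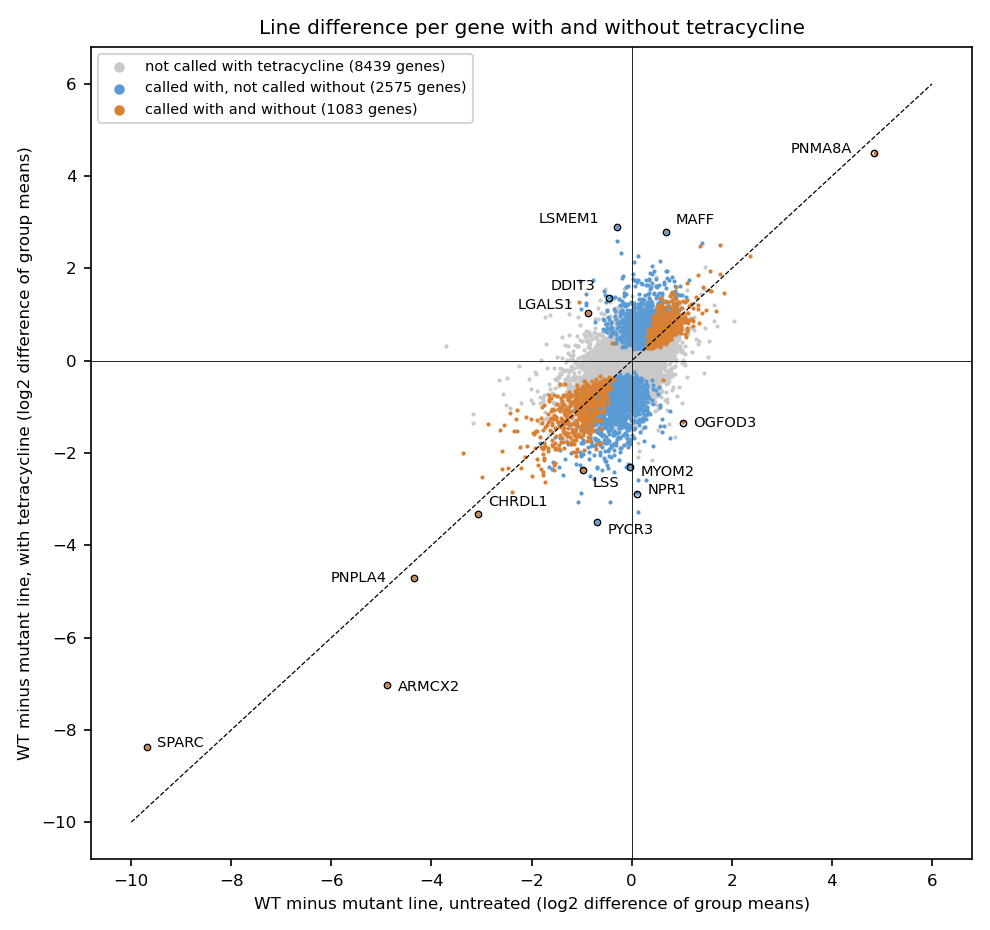
Each point is 1 of the 12097 tested genes, with the log2 difference between the lines without tetracycline on the x axis and with tetracycline on the y axis; colours show where limma called it and the dashed line marks equal differences. PNPLA4, CHRDL1 and PNMA8A lie near the dashed line, and SPARC and ARMCX2 lie further from it but far below 0 on both axes. NPR1, MYOM2, LSMEM1 and DDIT3 lie near 0 on the x axis or across it, and LGALS1 and OGFOD3 differ in opposite directions.

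The widest gaps with tetracycline were in genes whose signal was near background in 1 line, and the first 3 named here had wide gaps without it too. SPARC, a secreted matrix glycoprotein, read 2.92, 4.55 and 1.81 in the WT arrays and 11.5, 11.1 and 11.7 in the mutant arrays (-8.37 ± 0.52, adjusted p = 1.76e-06), and differed by -9.69 without tetracycline. ARMCX2, an armadillo-repeat gene of the X chromosome, read 5.95, 4.21 and 1.71 against 11.1, 10.9 and 10.9 (-7.03), and -4.88 without. PNMA8A, of the paraneoplastic antigen family, went the other way at 9.21, 8.62 and 8.60 against 5.38, 3.84 and 3.67 (4.51), and 4.85 without. In each of these 3 genes every WT array lay on the same side of every mutant array, in both treatments. Genes with the largest differences were picked among called genes whose groups do not overlap with tetracycline, so here and in the next paragraphs that separation describes the choice and supports nothing. Such MAS5 values near background have a wide error, so the size of these gaps is uncertain.

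PNPLA4, a lipid hydrolase gene on the X chromosome, read 8.25, 3.91 and 2.41 in the WT arrays and 9.49 to 9.67 in the mutant arrays (-4.70; -4.35 without tetracycline). WT replicate 1 was the high array, as it was among the untreated WT arrays at 7.70 against 4 and 3.15. The adjacent genes PUDP (-2.09 and -2.14) and STS (-1.78 and -1.82), picked after their values were seen, had the same layout: PUDP read 9.06 in WT replicate 1 and 6.99 and 7.15 in the others. The call of STS was lost without any 1 of the arrays other than WT replicate 1 (for example adjusted p = 0.155 without WT replicate 2). The remaining genes at the low end in the WT line were CHRDL1, a BMP antagonist (-3.32), SERPINF1, which encodes the secreted factor PEDF (-3.06), and PYCR3, an enzyme of proline synthesis (-3.49). At the low end in the mutant line were LSMEM1 (2.90), ACTR3-AS1 (2.54), C6orf52 (2.48), UNC5CL (2.13) and LINC01356 (1.91). PYCR3 and LSMEM1 were not called without tetracycline (-0.70 and -0.29), and both were called in the difference between the 2 line differences.

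Among genes above the filter level in both groups, those furthest up in the WT line included fast-response and stress genes. MAFF, a small Maf transcription factor, read 8.53, 9.88 and 10.3 in the WT arrays and 6.66, 6.75 and 6.90 in the mutant arrays (2.79 ± 0.44, adjusted p = 0.000552). DUSP1, a phosphatase that switches off MAP kinases, read 13, 14.6 and 14.5 against 12.1, 12 and 11.9 (2.06). PER2, a repressor of the circadian clock, read 9.70, 9.66 and 9.72 against 7.70, 7.72 and 7.80 (1.95). WT replicate 1 was the lowest WT array for MAFF and DUSP1 and not for PER2, and for each of the 3 genes no WT array overlapped with a mutant array. The others were UNC5B-AS1 (2.59), PDCD6P1 (2.5), SCARA5 (2.33), C11orf96 (2.27), SNTG2-AS1 (2.26), the ETS factor ETV5 (2.16), mitochondrial superoxide dismutase SOD2 (1.95), the small heat shock protein HSPB8 (1.94) and CCN2, a matricellular protein (1.94). A second probe set of PDCD6P1 differed by -0.16 and one of MAFF by 0.59, neither of them called.

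Without tetracycline SNTG2-AS1 and SOD2 differed to a like extent (2.37 and 1.57), and MAFF, DUSP1 and PER2 by 0.68, 0.41 and 0.71. None of MAFF, DUSP1 or PER2 was called in the test of the difference between the 2 line differences (adjusted p = 0.135, 0.129 and 0.183).

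The genes furthest down in the WT line began with GPC3, a heparan sulfate proteoglycan, which read 8.21, 8.73 and 8.86 in the WT arrays and 11 in all 3 mutant arrays (-2.40; -1.78 without tetracycline). LSS, lanosterol synthase of the cholesterol pathway, read 10.3, 9.41 and 9.5 against 12.1, 12.1 and 12.2 (-2.37 ± 0.23, adjusted p = 4.22e-05). A second probe set of LSS was also lower (-2.72), but another was called higher (0.63, adjusted p = 0.0386). The rest were PRTFDC1, the clathrin adaptor subunit AP2A1, the growth hormone receptor GHR, ASTN1, C19orf47, the cytochrome P450 gene CYP4X1 (-2.33), the NAD synthesis enzyme QPRT (-2.33), the phosphatase subunit PPP2R2B (-2.32), the sarcomere gene MYOM2 (-2.31) and the proline catabolism enzyme ALDH4A1 (-2.25).

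The genes for which the line difference itself differed with tetracycline were led by PSIP1, a chromatin-bound transcription coactivator. It read 11.9, 11.7 and 11.4 in the WT arrays with tetracycline and 12.9, 13 and 13 in the mutant arrays (-1.34 ± 0.13), while without tetracycline the lines differed by 0.02. The difference of the differences was -1.35 ± 0.18 (adjusted p = 0.029). NPR1, a natriuretic peptide receptor, read 4.61, 4.78 and 4.61 against 7.78, 7.31 and 7.54 (-2.88), with 0.11 without tetracycline. The 3 WT arrays with tetracycline were the low ones of all 12 for both genes.

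MYOM2 was low in the same arrays, at 7.89, 8.11 and 7.71 against 10.3, 10.2 and 10.1, with -0.04 between the lines without tetracycline. CYP4X1 (-2.33 with, -0.47 without), the insulin receptor substrate IRS4 (-1.27 and 0.15) and the complex I subunit NDUFA7 (-0.85 and 0.20) were also among the 11 genes on the lower side. A second probe set of IRS4 and one of NDUFA7 were lower without being called (-0.68 and -0.16).

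On the high side, DDIT3, the stress factor CHOP, read 11.2, 11.2 and 10.9 in the WT arrays with tetracycline and 9.48, 9.74 and 10 in the mutant arrays (1.35 ± 0.19), against -0.45 without tetracycline. GFPT1, which starts hexosamine synthesis, read 11.9, 12.3 and 12.1 against 11.1, 11 and 10.9 (1.11; -0.09 without). NFIL3, a repressor linked to the clock and to immune genes, differed by 1.09 and -0.20, and FTL, the ferritin light chain, by 1 and 0.24. For these 4 genes the WT arrays with tetracycline lay above the 9 other arrays. The 3 further probe sets of GFPT1 differed by 1.31, 0.83 and 0.42, and the first 2 of these were called.

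A few genes were called in opposite directions in the 2 treatments. LGALS1, galectin-1, read 10.7, 11.2 and 11.6 in the WT arrays with tetracycline against 10.3, 10 and 10.1 (1.03), but 9.28, 9.10 and 8.89 against 10, 9.98 and 9.87 without it (-0.87). OGFOD3 went the other way (-1.34 with and 1.02 without), as did the mitochondrial ribosomal gene MRPS25 (-0.42 and 0.63). These 3 were also called in the difference of the differences (adjusted p = 0.029, 0.029 and 0.0471). H2BC12L (1.28 and -1.05) and SERPINE2 (0.38 and -0.40) were not (adjusted p = 0.0586 and 0.0694).

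The call of the tetracycline difference was lost for MRPS25 without WT replicate 2 or 3 or mutant replicate 1 or 2, for SERPINE2 without any of the same 4, and for H2BC12L without WT replicate 2 or 3 (adjusted p = 0.0529 and 0.0517). LAMB3, a laminin chain, was the 1 gene of the 22 not called with tetracycline (0.32 with, -3.70 without). ATF3 (1.09 and -0.33), DCXR (-0.90 and -0.08) and L3HYPDH (-1.41 and 0.57), named here after their values were seen, were others of the 22. These 22 calls depended on the arrays used: the 50 probe sets became 0 without WT replicate 3 or without any 1 of the mutant arrays, 7 without WT replicate 2 and 2813 without WT replicate 1.

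**Figure D2:**
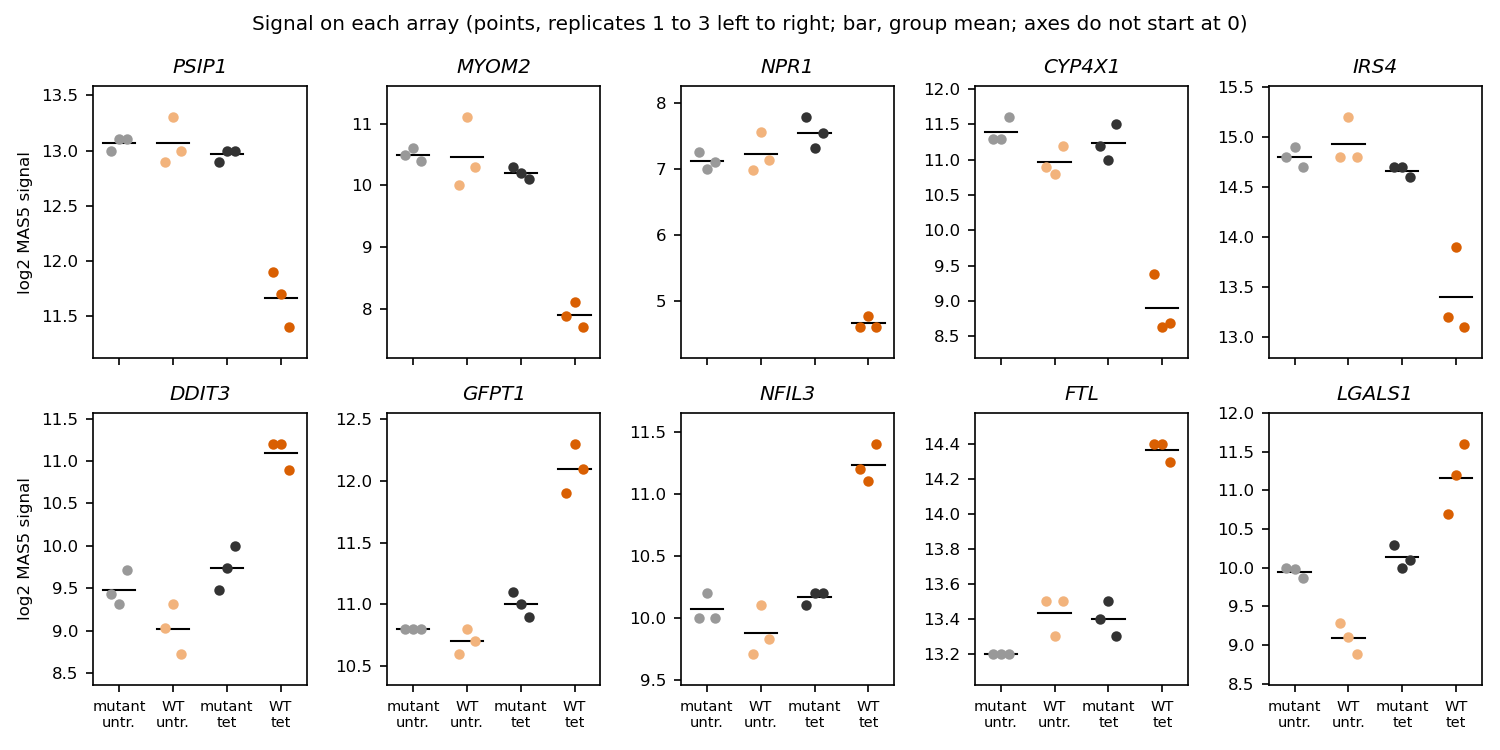
Log2 MAS5 signal of 10 genes on each of the 12 arrays, as points by group with the group mean as a bar; the y axes do not start at 0. The 3 WT arrays with tetracycline stand below the other arrays for PSIP1, MYOM2, NPR1, CYP4X1 and IRS4, and above them for DDIT3, GFPT1, NFIL3, FTL and LGALS1.

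The integrated stress response is the program through which amino acid shortage, misfolded protein and other stresses raise the transcription factor ATF4 and its targets. Of 39 tested members of its list, 15 (38.5%) were higher in the WT line with tetracycline and 2 lower, against 14.4% and 15.8% of all tested genes. The counts of every list below are to be read against these same shares. The median member differed by 0.28, and by -0.10 without tetracycline, where 5 were higher and 6 lower. Leaving out any 1 of the 6 arrays gave 14 to 16 higher members, while the lower members were 5 without WT replicate 1 and 1 without WT replicate 3 or mutant replicate 2. By role, 5 of 7 transcription factors, 6 of 10 amino acid and one-carbon enzymes and 0 of 8 amino acid transporters were higher.

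ATF4 read 14.9, 14.7 and 15.1 in the WT arrays and 14.2, 14.1 and 13.9 in the mutant arrays (0.84 ± 0.12, adjusted p = 0.000338). ASNS, the asparagine synthetase and a classical ATF4 target, read 14, 13.8 and 13.8 against 12.7, 12.6 and 12.3 (1.33 ± 0.13, adjusted p = 3.72e-05), and was higher without tetracycline as well (0.89). GDF15, a secreted stress cytokine, read 9.64, 10.7 and 10.8 against 8.78, 8.53 and 8.50 (1.75). In these 3 genes and in DDIT3 above, no WT array reached down to a mutant array. They were picked for small p-values or for that separation, so it describes the choice. The groups did not overlap in 42.6% of all tested genes. The translation repressor EIF4EBP1 (0.84) and the mitochondrial folate enzyme MTHFD2 (0.66) were higher too, the neutral amino acid transporter SLC1A5 was lower (-0.80), and the cationic one, SLC7A1, was not called (0.31, adjusted p = 0.0795).

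The unfolded protein response restores folding capacity in the endoplasmic reticulum. In its list 9 of 31 tested members (29.0%) were higher in the WT line with tetracycline and 3 lower, with 1 and 1 without tetracycline, and the median was 0.15 with and -0.05 without. The higher count was 8 to 10 with 1 array left out, and the lower count 0 without WT replicate 2 and 1 without WT replicate 3 or any mutant array. XBP1, its main transcription factor, read 11.9, 12 and 12.2 in the WT arrays and 11.1, 10.9 and 11.3 in the mutant arrays (0.92 ± 0.13, adjusted p = 0.000276). HSPA5, the chaperone BiP, named after its values were seen, read 14, 14.6 and 15.3 against 13.5, 13.5 and 13.6 (1.14 ± 0.25). Both sets of WT arrays lay above the mutant arrays, which describes how these genes were picked and supports nothing. The lines without tetracycline differed by 0.09 and 0.04. The co-chaperone DNAJB9 (1.21), the sensor ERN1, known as IRE1 (1.04), MANF (0.70) and HERPUD1 (0.69) were also called, and EDEM3 was not (0.44, adjusted p = 0.0534).

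The promoters of 4 members of these lists are shown because they hold the motif through which their pathway's factors are known to act: 250 bases before the start, from RefSeq in GRCh38.p14, in the direction of the gene, with the motif in capitals. ERSE, searched as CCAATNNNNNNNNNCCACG, is bound by the endoplasmic reticulum stress factors. CARE, searched as TGATGNAAN, is bound by ATF4 dimers. SRE, searched as TCACNCCAC, is bound by the SREBP factors of sterol control. The HSPA5 sequence is chr9:125241344-125241593 (minus strand), XBP1 chr22:28800570-28800819 (minus), ASNS chr7:97872409-97872658 (minus) and SREBF2 chr22:41832855-41833104 (plus).
HSPA5: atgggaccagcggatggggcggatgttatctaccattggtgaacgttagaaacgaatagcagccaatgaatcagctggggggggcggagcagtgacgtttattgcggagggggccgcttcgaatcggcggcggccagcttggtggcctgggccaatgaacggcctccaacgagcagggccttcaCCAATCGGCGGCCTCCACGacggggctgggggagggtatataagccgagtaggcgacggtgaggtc
XBP1: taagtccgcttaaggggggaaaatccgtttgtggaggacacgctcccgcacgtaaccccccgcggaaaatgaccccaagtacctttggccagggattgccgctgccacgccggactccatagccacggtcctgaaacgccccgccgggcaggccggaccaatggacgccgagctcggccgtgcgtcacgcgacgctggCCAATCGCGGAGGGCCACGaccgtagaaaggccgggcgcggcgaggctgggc
ASNS: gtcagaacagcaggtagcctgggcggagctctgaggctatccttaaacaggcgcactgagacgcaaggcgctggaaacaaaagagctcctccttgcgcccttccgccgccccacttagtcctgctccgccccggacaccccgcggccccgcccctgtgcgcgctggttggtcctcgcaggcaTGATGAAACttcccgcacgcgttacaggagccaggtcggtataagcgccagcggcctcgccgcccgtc
SREBF2: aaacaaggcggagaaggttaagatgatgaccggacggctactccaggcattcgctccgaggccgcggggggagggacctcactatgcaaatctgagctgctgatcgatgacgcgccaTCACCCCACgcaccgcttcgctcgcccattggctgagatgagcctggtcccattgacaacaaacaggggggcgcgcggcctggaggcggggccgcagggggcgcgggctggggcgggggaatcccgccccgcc

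On both strands of 35116 promoters of this length, ERSE was found in 26 (0.074%), CARE in 1100 (3.13%) and SRE in 310 (0.883%). Overlaps between the motifs were not searched for. ERSE was in 5 of 28 members of the unfolded protein response list with a promoter. Of these 5, 2 were among the 9 higher in the WT line, 1 among the 3 lower and 2 among the 16 not called. CARE was in 4 of 34 members of the integrated stress response list, 3 among 13 higher ones, 0 among 2 lower and 1 among 19 not called. SRE was in 1 of 27 members of the cholesterol list, SREBF2, which was lower in the WT line (-0.80, adjusted p = 0.0181) and is named for its motif. A match is a description of these letters and was not tested for binding.

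The cytosolic tRNA synthetases, which charge tRNAs with amino acids, went in both directions. Of 18 tested, 5 were higher and 6 lower in the WT line with tetracycline. RARS1 read 11.6, 10.8 and 10.7 in the WT arrays and 12.6, 12.9 and 12.8 in the mutant arrays (-1.74), with -0.06 without tetracycline, and FARSA was lower as well (-1.15). SARS1 (0.68) and the scaffold AIMP1 (0.58) were higher. With quantile normalization the count was 2 higher and 7 lower, it was 3 and 4 without WT replicate 3 or mutant replicate 1, and 2 and 4 without mutant replicate 3.

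The genes of cholesterol and fatty acid synthesis formed the list with the largest share of called members. In all 19 of 30 tested (63.3%) were lower in the WT line with tetracycline and 0 higher, against 15.8% and 14.4% of all tested genes. Their median was -0.60, and 28 of the 30 lay below 0. Without tetracycline 7 were lower and 1 higher, with a median of -0.39, and 0 members were called in the difference of the differences, where LSS came nearest (-1.39, adjusted p = 0.0844). Leaving out 1 array gave 13 to 19 lower members, and quantile normalization 19.

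By role, 10 of 16 cholesterol enzymes, 5 of 8 fatty acid enzymes and 4 of 6 regulators or receptors were lower. TM7SF2, a sterol reductase, read 8.16, 7.02 and 7.13 in the WT arrays and 9.57, 9.55 and 9.82 in the mutant arrays (-2.21 ± 0.33, adjusted p = 0.000385). NSDHL, a sterol dehydrogenase, read 10.4, 10 and 9.66 against 12, 11.7 and 11.6 (-1.77). FASN, the fatty acid synthase, read 11.7, 11.3 and 11.6 against 13, 13.2 and 12.5 (-1.35). In these 3 enzymes, which were picked for small p-values, every WT array lay below every mutant array.

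Without tetracycline the differences of the same 3 genes were -1.53, -0.54 and -0.91. ACLY, which makes cytosolic acetyl-CoA, differed by -0.86 with tetracycline and -0.12 without. Of the regulators, SREBF1, the factor that drives lipid synthesis genes, read 8, 6.88 and 7.98 against 8.78, 9.76 and 9.63 (-1.77). SCAP, the sterol sensor that carries SREBPs, differed by -0.49, and its call was lost without WT replicate 3 or mutant replicate 2 (adjusted p = 0.0594 and 0.0644).

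**Figure D3:**
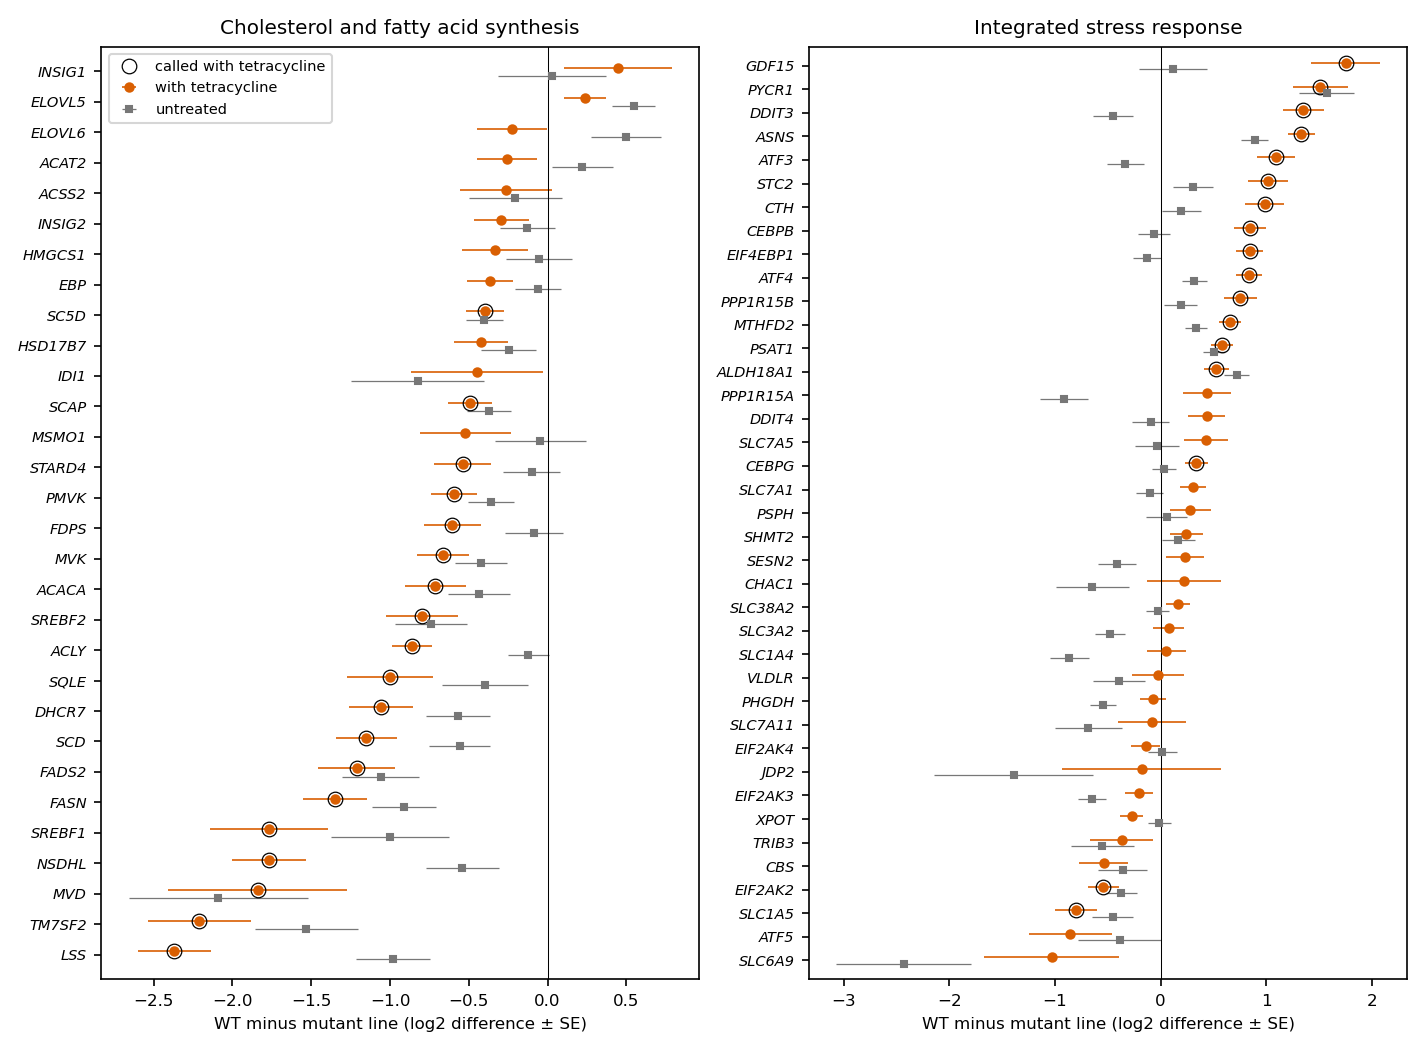
Log2 difference WT minus mutant of each tested member of the cholesterol and fatty acid synthesis list (left, 30 genes) and of the integrated stress response list (right, 39 genes), with tetracycline (circles) and without (squares); bars are SE and rings mark genes called with tetracycline. In the left panel 19 members are ringed below 0; in the right panel 15 are ringed above 0 and 2 below.

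Immediate early genes answer growth factors and stress within minutes. Of 19 tested, 5 (26.3%) were higher in the WT line with tetracycline and 1 lower, against 14.4% and 15.8% of all tested genes. In all 15 lay above 0, with a median of 0.40 and of -0.20 without tetracycline. Besides MAFF, the reprogramming factor KLF4 read 11.4, 11.9 and 12.1 in the WT arrays and 10.5, 10.5 and 10.4 in the mutant arrays (1.33). MYC, a driver of growth, was the lower one at 10.1, 10.6 and 10.2 against 11.4, 11.5 and 11.2 (-1.06), with 0.18 without tetracycline. FOS (0.95, adjusted p = 0.198) and FOSL1 (1.21, adjusted p = 0.0883) were not called. KLF6 (0.97) lost its call without WT replicate 2 or 3 or mutant replicate 2 or 3, and the list had 2 higher members without WT replicate 2 or mutant replicate 3, and 3 without WT replicate 3 or mutant replicate 2.

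Of the genes that feed back on MAP kinases, 4 of 15 tested were higher and 0 lower: DUSP1, ETV5, the RAS inhibitor SPRED2 (0.96) and DUSP7 (0.57), the last of which lost its call without WT replicate 1 or any mutant array. The list median was 0.30 with tetracycline and 0.26 without it, where 0 were higher and 0 lower. Of the targets of YAP and TEAD, which transmit cell spreading and tension, 5 of 13 (38.5%) were higher and 0 lower. Their median was 0.34 with tetracycline and 0.25 without it, where 1 was higher and 0 lower. CCN1 read 10.6, 11.6 and 11.9 against 9.88, 9.94 and 10.1 (1.37; -0.41 without tetracycline), the Hippo kinase LATS2 differed by 1.18, and GADD45B read 10.7, 10.2 and 10.6 against 9.01, 8.94 and 8.45 (1.71). These groups of arrays did not overlap, but the genes were picked for small p-values, and 42.6% of all tested genes had no overlap.

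Targets of p53 went the same way, with 7 of 19 tested (36.8%) higher and 0 lower, against 14.4% and 15.8% of all tested genes. CDKN1A, the cell cycle inhibitor p21, read 12.2, 12.4 and 12.8 in the WT arrays and 11, 11.3 and 11.4 in the mutant arrays (1.21 ± 0.18), against -0.23 without tetracycline, and it was one of the 22 genes of the difference of the differences (1.45, adjusted p = 0.0457). The death receptor TNFRSF10B (1.11), the receptor FAS (0.73) and TIGAR (0.67) were also higher. GADD45A (0.82) lost its call without WT replicate 2 or 3 or mutant replicate 3, and the list had 4 higher members without WT replicate 2.

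Of the wider list of cell death regulators, 8 of 34 tested were higher and 1 lower, which became 3 lower without WT replicate 1. Its median was 0.16 with tetracycline and 0.18 without it, where 4 were higher and 3 lower. TNFRSF12A, a receptor for TWEAK, read 11.1, 11 and 11.1 against 9.57, 9.41 and 9.28 (1.63). BCL2 (1.02), BIRC2 (0.77) and BIRC5 (0.66), which restrain death, were higher, as were the death receptors TNFRSF10B and FAS above. BAK1, which promotes death, was lower (-0.85; -1.11 without tetracycline), and lies in a chromosome 6 stretch described below that was lower in both treatments. The 16 tested BCL2 family genes had a median of -0.10, with 2 higher and 1 lower. Of 4 further stress lists, NRF2 targets and iron genes had 3 higher and 3 lower of 19, with HMOX1 higher (1.12, lost without WT replicate 2) and PGD and KEAP1 lower (-1.07 and -0.91, the latter lost without WT replicate 2), and 1 lower in all without WT replicate 2. Heat shock proteins had 4 higher and 2 lower of 15, the cytosolic chaperonin 3 higher of 7, and the lysosome and autophagy list 11 higher (31.4%) and 3 lower of 35. Without tetracycline heat shock proteins had 4 higher and 0 lower, with a median of 0.16 against 0.23 with it. The chaperonin then had 2 higher and 0 lower, with a median of 0.23 against 0.19. With quantile normalization the heat shock count became 2 and 1, the chaperonin median fell from 0.19 to 0.0083, and a second probe set of the chaperonin gene CCT8 was called lower (-1.11).

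In the lysosome and autophagy list, the 18 tested lysosome genes had 4 higher and 3 lower, with a median of 0.071. The 17 tested autophagy genes had 7 higher and 0 lower, with a median of 0.40. Among lysosomal genes, PSAP, the precursor of the saposins, read 13.4, 13.7 and 13.8 in the WT arrays and 12.8, 12.5 and 12.4 in the mutant arrays (1.06). The proteases CTSB (0.85) and TPP1 (0.77) were higher and CTSZ was lower (-1.09). The list had 7 higher members without WT replicate 2 or mutant replicate 2, and 5 lower ones without WT replicate 1.

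Of the interferon-stimulated genes, the antiviral set, 10 of 22 tested (45.5%) were lower in the WT line with tetracycline, 0 higher and 12 not called. Among all tested genes 15.8% were lower and 14.4% higher. The median was -0.41, and 5 were lower without tetracycline. IFIH1, the RNA sensor MDA5, read 6, 7.68 and 6.58 in the WT arrays and 8.77, 8.53 and 8.83 in the mutant arrays (-1.96), and differed by -2.59 without tetracycline. IFITM1 (-1.46), IFIT3 (-1.10), IRF1 (-0.94) and IFI6 (-0.82) were called too. The members' median signal was 8.25, in the range where the median of all genes was negative, and with quantile normalization 6 were lower and 1 higher. The count of lower members was 5 without WT replicate 3 or mutant replicate 1, 6 without mutant replicate 2, and 0 without the replicate 3 arrays of all groups, and IRF1 lost its call without WT replicate 3 or mutant replicate 1.

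In the antigen presentation list 4 of 12 were lower and 1 higher. The peptide loading genes TAPBP (-1.60) and TAP2 (-0.98) and the trimming enzyme ERAP1 (-1.79) were lower, and B2M, the light chain of class I, was higher (0.51). Of the NF-kB and cytokine list 0 of 14 were higher and 2 lower, NFKB2 (-0.90) and NFKB1 (-0.48). With quantile normalization that list had 2 higher and 0 lower, and both calls were lost without WT replicate 2 or mutant replicate 1 or 2.

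The lists of protein synthesis and energy went in different directions. All 36 tested cytosolic ribosomal protein genes lay above 0, with a median of 0.21 and 10 higher, against a median of 0.15 and 3 higher without tetracycline. Their median signal was 15.3, in the range where the median of all genes was positive, and with quantile normalization the median was 0.035 and 5 were higher. The count was 20 without WT replicate 1, 6 without WT replicate 2, and 5 without WT replicate 3 or mutant replicate 1 or 3. In the mitochondrial translation list 9 of 40 were lower and 4 higher with tetracycline, while without it 0 were lower and 7 higher, and the median was -0.24 with and 0.17 without. MARS2, the mitochondrial methionine tRNA synthetase, read 8.47, 7.24 and 7.34 against 9.10, 8.95 and 8.84 (-1.28), MRPL20 differed by -0.92, and MTRF1L (0.93) and MRPS15 (0.64) were higher. The lower count was 4 without WT replicate 2 and 5 without mutant replicate 1 or 2. The higher count was 2 without any 1 array other than WT replicate 3, and also with quantile normalization.

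Respiratory chain genes had 11 higher (28.2%) and 3 lower of 39 with tetracycline, and 8 higher and 0 lower without it. Their median was 0.18 with and 0.23 without tetracycline. UQCRB of complex III (0.78) and the complex I subunits NDUFB8 (0.55) and NDUFB3 (0.54) were higher and ATP5F1D of the ATP synthase was lower (-0.86). The counts were 6 higher and 5 lower with quantile normalization. The higher count was 6 without WT replicate 2 and 7 without mutant replicate 1, and the lower count 1 without WT replicate 2 or mutant replicate 2. Ribosome biogenesis had 1 higher and 6 lower of 27, with the polymerase I subunit POLR1A (-1.45), RRP9 (-0.93), UBTF (-0.72) and nucleolin, NCL (-0.48), lower and POLR1C higher (0.88), and 3 higher without WT replicate 2.

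The proteasome had 6 higher (19.4%) and 5 lower (16.1%) of 31, near the 14.4% and 15.8% of all tested genes, against 10 and 0 without tetracycline. The immunoproteasome subunit PSMB10 was lower (-2.59), and PSMB7 (0.52) and PSMB1 (0.44) were higher. PSMC2 (0.74) and PSMD12 (0.89) were higher on their brightest probe set but lower on others (-0.86 and -1.05 for PSMC2, -0.87 for PSMD12, all called), so their direction depended on the probe set. The lower count was 3 without WT replicate 2 or mutant replicate 2.

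Mitotic and DNA replication lists held the cell cycle genes. Of 32 mitotic genes 9 (28.1%) were higher and 2 lower, with 0 and 2 without tetracycline. The proliferation marker MKI67 (0.78), the kinesin KIF2C (0.75) and NUSAP1 (0.60) were higher and the phosphatase CDC25B was lower (-0.72). There were 14 higher without WT replicate 1, 6 with quantile normalization and 0 without the replicate 3 arrays of all groups. DNA replication genes had 7 higher (17.1%) and 8 lower (19.5%) of 41, near the 14.4% and 15.8% of all tested genes. Among them were RRM2, a ribonucleotide reductase subunit, at 14.3, 14.5 and 14.7 against 13.5, 13.6 and 13.3 (1.03), RFC4 (0.65), MCM4 (-0.65) and UHRF1 (-0.79). Those counts were 4 and 5 without WT replicate 2, 5 and 5 without WT replicate 3, 3 and 5 without mutant replicate 1, 2 and 5 without mutant replicate 2, and 4 and 12 with quantile normalization.

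Histone genes, whose copies are near identical and whose probe sets can share transcripts, had 6 higher and 3 lower of 17 with tetracycline and 1 and 4 without it. H2BC12 read 13.8, 14.8 and 14.7 in the WT arrays and 13.2, 13.1 and 13.2 in the mutant arrays (1.27), against -0.51 without tetracycline. The variant H2AZ2 was higher (0.67), and H4C8 was lower (-1.25, lost without any 1 array other than WT replicate 1). The histone medians were 0.26 with tetracycline and -0.73 without. The higher count was 2, and the lower 0 or 1, without WT replicate 2 or 3 or any 1 mutant array.

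In metabolism, glycolysis and hypoxia genes had 5 higher (13.9%) and 4 lower (11.1%) of 36, both below the 14.4% and 15.8% of all tested genes. The 2 roles differed: of 19 glycolysis genes 0 were higher and 3 lower, with a median of -0.15. Of 17 hypoxia-induced genes 5 were higher and 1 lower, with a median of 0.24. VEGFA, the angiogenic factor, read 11.5, 11.1 and 10.8 in the WT arrays and 9.99, 10 and 9.65 in the mutant arrays (1.28; 1.06 without tetracycline), and PFKFB3 was higher (1.16). PDK1, which restrains pyruvate entry, was lower (-1.23), as were PKM (-0.81) and PFKL (-0.74). The counts were 8 higher and 7 lower without WT replicate 1, and 6 and 8 with quantile normalization.

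The insulin, IGF and FOXO list had 5 higher and 8 lower of 24. IGFBP5, which binds IGFs, read 9.40, 9.63 and 9.10 against 11.4, 11.3 and 11.3 (-1.94 ± 0.22), and differed by -0.96 without tetracycline. The insulin receptor INSR read 9.72, 9.99 and 9.96 against 8.29, 9.05 and 8.72 (1.20; 0.36 without), and IGF2BP1 (1.20), FOXO3 (0.79) and PDK4 (1.14) were higher. IRS4, described above, was lower. The hexosamine list had 5 higher and 2 lower of 20, with OGA, which removes O-GlcNAc, higher (1.17), MGAT5 higher (0.74) and ST3GAL5 lower (-0.69). It had 3 higher with quantile normalization or without WT replicate 2 or 3 or mutant replicate 1 or 2. The clock list had 3 higher of 14 and 0 lower, namely PER2, NFIL3 and CRY1 (0.88), and 6 higher without WT replicate 1.

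The lists of ion transport are read against 30.2% of all tested genes called. Of the 15 tested magnesium transport genes, 1 was higher and 2 lower, with a median of -0.24 and 11 below 0. CNNM3, of the cyclin-box family linked to magnesium efflux, read 9.06, 9.02 and 9.48 in the WT arrays and 10.1, 10.3 and 9.93 in the mutant arrays (-0.92, adjusted p = 0.00151), and differed by -1.04 without tetracycline. CNNM1 was lower (-0.58) and NIPA1 higher (0.80). CNNM1 lost its call without WT replicate 1 or any mutant array, and NIPA1 without WT replicate 2 or 3 or any mutant array. Without WT replicate 1 the list had 1 higher and 6 lower members, and with quantile normalization 2 higher and 1 lower.

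The other magnesium genes were not called: NIPAL3 (-0.38), MRS2 (-0.30), MAGT1 (-0.26), NIPA2 (-0.25), SLC41A2 (-0.24), MMGT1 (-0.13), SLC41A1 (-0.12), TUSC3 (-0.07), CNNM4 (0.21), CNNM2 (0.26) and SLC41A3 (0.40). TRPM6, the relative of TRPM7, was too dim to be tested (-0.72). The probe sets of MAGT1 disagreed, with others called at 0.81 and -0.78, and 1 of CNNM2 was called at -1.42.

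Of 11 TRP and store-operated channel genes, 1 was lower, the lysosomal channel MCOLN1 (-1.55), whose call was lost without any 1 array other than WT replicate 1, and ORAI1 was not called (-0.39, adjusted p = 0.0677). Of 25 genes of calcium pumps, stores and calpains, 0 were higher and 2 lower, the release channel RYR2 (-2.20) and CAPN15 (-0.97). Of 24 zinc genes, 3 were higher and 3 lower (1 lower without WT replicate 2 or mutant replicate 2), with the zinc exporters SLC30A4 (1.08) and SLC30A1 (0.73) higher and MT1X, a metallothionein, lower (-0.90; -0.81 without tetracycline). SLC39A7 (-0.73) and SLC39A3 (-0.66), of the SLC39 family of zinc transporters, lost their calls without WT replicate 2 or mutant replicate 2. SLC39A7 and SLC30A1 lost theirs also without mutant replicate 1. SLC39A7 differed by -1.1 without tetracycline and lies in the same chromosome 6 stretch as BAK1, described below, that was lower in both treatments. Voltage-gated and other ion channels had 3 higher and 2 lower of 18 (4 and 5 without WT replicate 1), with the sodium channel SCN9A at 6.96, 5.78 and 5.77 against 8.55, 8.05 and 8.10 (-2.06; -1.12 without tetracycline) and ANO6 (0.70) higher.

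In adhesion and matrix lists the calls went both ways. Of 43 actomyosin and adhesion genes 9 were higher and 10 lower. ACTA2, smooth muscle actin, read 10.9, 11.3 and 10.8 against 9.93, 9.64 and 9.65 (1.27), with -0.01 without tetracycline, and was one of the 22 genes of the difference of the differences (1.28, adjusted p = 0.0478). CAV2 was higher (0.98), and MYLK (-1.40), the tetraspanin CD151 (-1.30), ACTN4 (-1.15) and PFN2 (-1.05) were lower. There were 5 higher without WT replicate 3, and the lower count 6 without mutant replicate 2. Of annexins, S100 proteins, galectins and EMP proteins, 6 of 20 were higher and 3 lower, with ANXA1 higher (0.84) and ANXA6 lower (-1.08), but 3 were higher without mutant replicate 1 or 3, and 2 with quantile normalization.

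Of 49 matrix and TGF-beta genes, 7 were higher (14.3%) and 9 lower (18.4%), near the 14.4% and 15.8% of all tested genes. COL2A1, a cartilage collagen, read 7.71, 7.12 and 6.75 in the WT arrays and 9.04, 9.14 and 9.10 in the mutant arrays (-1.90; -1.77 without tetracycline), and COL6A2 (-1.56), LAMA5 (-1.06) and the protease PLAT (-0.75) were lower. TIMP1 (0.59) and ID4 (0.73) were higher. There were 12 higher without WT replicate 1 and 4 without mutant replicate 1 or 2.

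Genes that mark position or cell type made up the last group of lists. Of 24 HOX genes, which set position along the body axis, 8 (33.3%) were higher and 0 lower with tetracycline, with a median of 0.39, against 1 and 0 and a median of -0.07 without it. The shares of all tested genes with tetracycline were 14.4% higher and 15.8% lower. HOXD13 read 11.2, 12 and 12.4 in the WT arrays and 10.7, 10.7 and 10.8 in the mutant arrays (1.14). HOXB4 (0.88), HOXC13 (0.84), HOXD10 (0.74) and HOXB3 (0.61) were called too, and each of these 4 lost its call without at least 1 single array. A further HOXD10 probe set was called lower (-1). The count was 11, with 2 lower, without WT replicate 1, 4 without WT replicate 2, 5 without WT replicate 3 or mutant replicate 2 or 3, and 1 without the replicate 3 arrays of all groups.

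Keratins, cadherins and intermediate filaments had 7 higher and 6 lower of 25. Desmoplakin, DSP (1.24; 1.19 without tetracycline), KRT10 (1.18) and ZEB1 (0.99) were higher, and JUP (-1.14) and KRT8 (-0.96; -1.14 without) were lower. With 4 higher, the count was smaller with quantile normalization or without WT replicate 2 or mutant replicate 1 or 3. Axon guidance genes had 6 higher and 8 lower of 26, with SEMA3C higher (1.01) and NRP1 (-1.11) and EPHA4 (-0.75) lower, but 4 and 5 without WT replicate 2, 4 and 3 without WT replicate 3, 2 and 4 without mutant replicate 1, 2 and 5 without mutant replicate 2, 5 and 4 without mutant replicate 3, and 7 and 4 with quantile normalization. Neuronal genes had 2 higher and 5 lower of 29, with TUBB2A higher (0.79) and GPRIN1 (-1.40) and NCAM1 (-0.89) lower by about as much as without tetracycline (-1.40 and -0.90). The neuronal list had 4 higher without WT replicate 1, and 3 lower without WT replicate 3 or mutant replicate 2.

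Wnt and Notch genes had 6 higher (17.1%) and 3 lower (8.57%) of 35, against 14.4% and 15.8% of all tested genes. JAG1 (0.81) and HEY1 (0.58) were higher and FZD3 (-0.87) and FZD6 (-0.66) lower. HEY2 was higher on its brightest probe set (0.94) and lower on another (-0.83). Kidney developmental genes had 2 higher of 19, SIX4 (0.87) and SALL1 (0.54), both lost without WT replicate 3 or mutant replicate 1 or 2. Protocadherins were dim, with 5 of 20 measured genes tested and 2 lower, PCDHB2 (-1.13; -2.44 without tetracycline) and PCDH9 (-0.73; -1.18 without), both lost without WT replicate 3. Of 28 measured cancer-testis genes, 1 was tested, PRAME, and it was not called (-0.08).

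**Figure D4:**
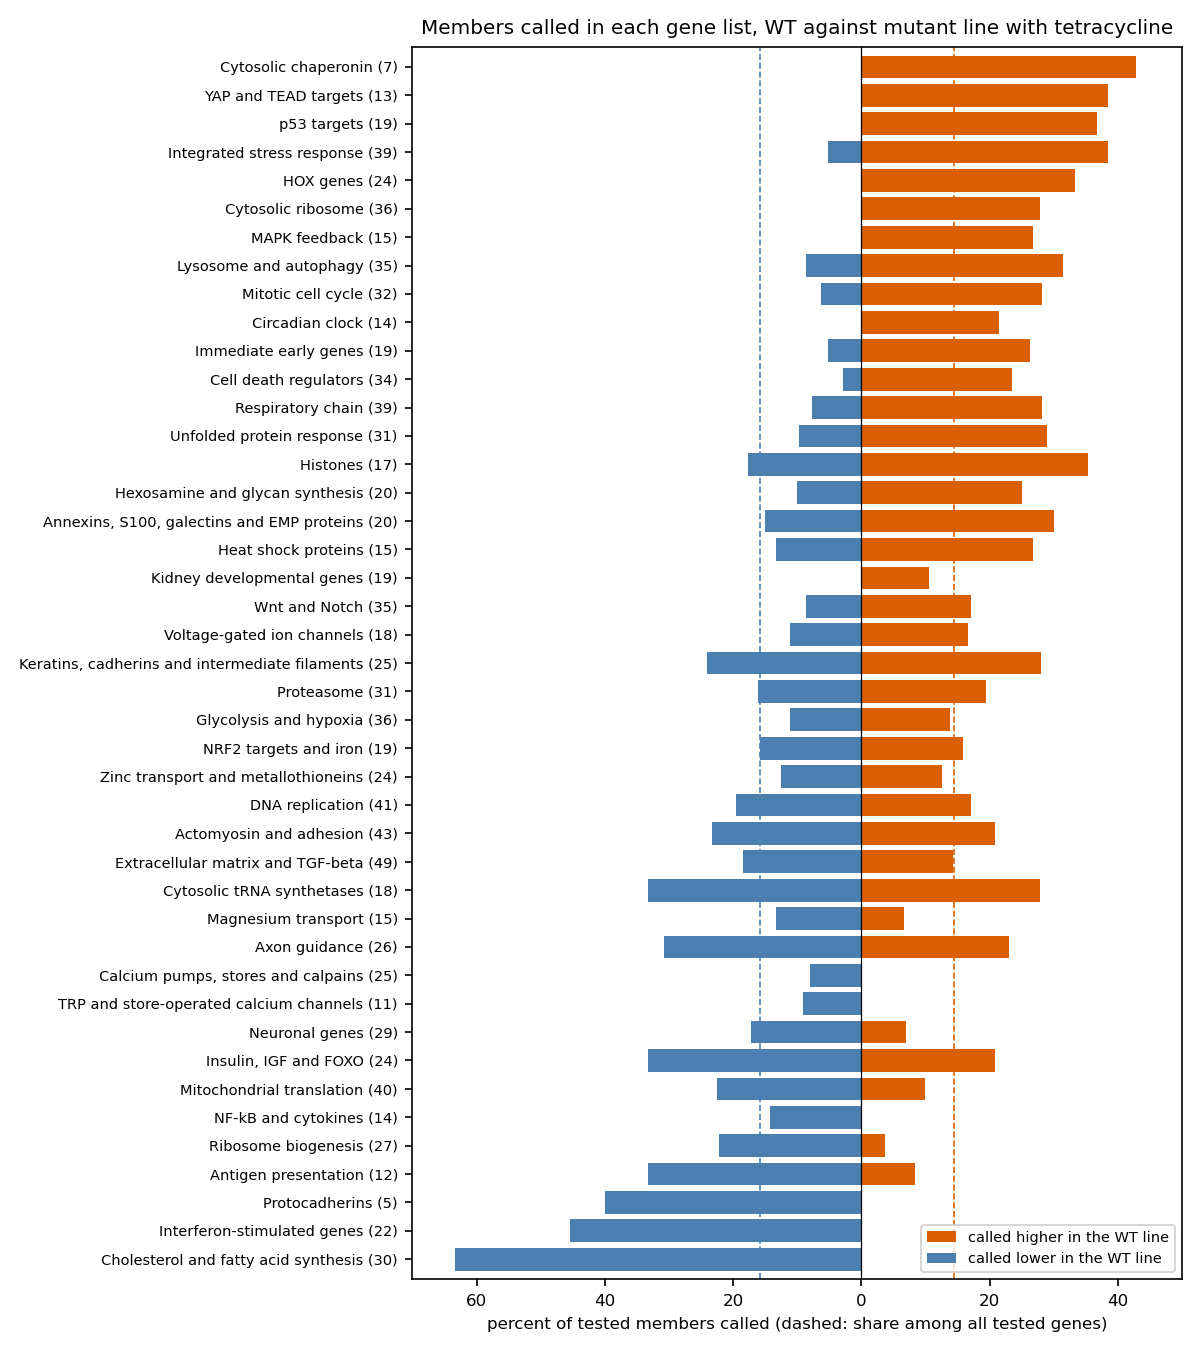
Percent of the tested members of each gene list (number tested in brackets) called higher in the WT line with tetracycline (to the right) and lower (to the left); dashed lines mark 14.4% and 15.8%, the shares among all tested genes. Cholesterol and fatty acid synthesis has the longest bar to the left at 63.3%, and the cytosolic chaperonin, with 7 genes, the longest to the right at 42.9%.

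Neighbouring genes differed together in several places, in both treatments. In RefSeq gene order (GRCh38.p14), the median difference with tetracycline was 0.24 on chromosome 6, 0.21 on chromosome 7 and 0.16 on chromosome 10, where 31.6%, 28.3% and 24.2% of the genes were higher, and between -0.18 and 0.057 on every other chromosome. Without tetracycline the same 3 chromosomes had medians of 0.22, 0.23 and 0.16.

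Stretches were then taken from the untreated arrays alone, wherever a running median of 21 genes reached 0.4 in size over at least 10 genes, and read in the arrays with tetracycline. There were 18 of them on 7 chromosomes, 13 higher and 5 lower, holding 726 genes (6.01%). With tetracycline the median of all 18 had the same sign, from 0.29 to 0.61 in the higher ones and from -0.63 to -0.21 in the lower ones. The stretches held 250 of the genes called higher with tetracycline and 98 of those called lower, and outside them 13.2% and 16% of genes were called.

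The longest stretches lay on chromosome 6. From CALHM6 to AFDN 140 genes had a median of 0.51 without tetracycline and 0.55 with it, and 73 were called higher and 5 lower. From H3C2 to LEMD2 139 genes had medians of -0.75 and -0.51, with 59 called lower and 6 higher. On chromosome 7, 64 genes from POLR2J to ZNF800 had medians of 0.58 and 0.61, with 35 higher and 3 lower. The H3C2 to LEMD2 stretch held 10 of the 17 tested histone genes and 8 of the 12 antigen presentation genes. The 10 histone genes in it had medians of 0.50 with tetracycline and -0.98 without, and the 8 antigen presentation genes -0.25 and -0.73. The interferon and HOX lists had 0 genes in any of the 18 stretches and the cholesterol list 1.

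**Figure D5:**
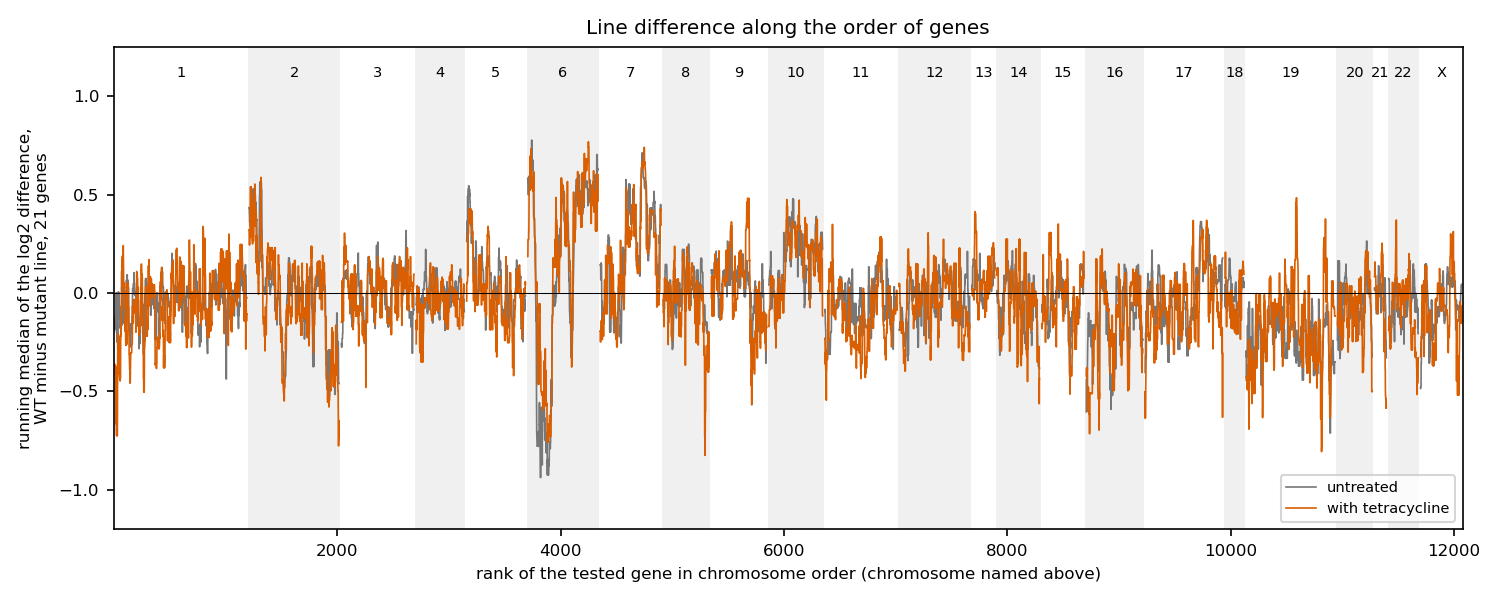
Running median over 21 tested genes of the log2 difference WT minus mutant, along the genes in chromosome order (rank on the x axis), without tetracycline (grey) and with it (orange). Both lines rise together along most of chromosome 6 and parts of chromosomes 7 and 10, and drop together in 1 stretch of chromosome 6, whose medians are -0.75 and -0.51.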

How the data were processed

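The data were 12 Affymetrix arrays, 3 for each of 4 groups. The deposited values were MAS5 signal intensity per probe set on a linear scale, summarised by the authors per the submitters' processing notes; the MAS5 version and settings are not given in the sources used here. Values below 1 (2211, 0.337%) were set to 1 and log2 was taken. Of 54613 probe sets other than the 62 array controls, 25989 with a mean log2 signal above 6.39, the median of all values, were tested. Group means over all 12 arrays were fitted in limma 3.58.1 (R 4.3.3; lmFit, eBayes with a variance trend), with contrasts for the lines with tetracycline, without it, and the difference of these, and Benjamini-Hochberg adjustment over all tested probe sets. Probe sets were named from the platform annotation: 41091 had 1 gene symbol, 1801 several and 11721 none, and only those with 1 were named. Of other tested probe sets of called genes, 72.2% had the same direction and 240 (6.93%) were called in the opposite one. Array controls were compared with exact 2-sided permutation tests. Python 3.11.15 and matplotlib 3.10.9 were used for tables and figures, and the fit was tested on simulated data.

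Named genes were, among called genes without overlap between groups, the 12 largest differences of each sign above the filter level in both groups, the 6 of each sign below it in 1 group, the 10 with the smallest p in the difference of the differences, up to 6 called in opposite directions, and in each list up to 4 members, or 2 a role, with the smallest p; TRPM7 and the magnesium genes were named throughout. HSPA5, SREBF2, ATF3, LAMB3, DCXR, L3HYPDH, PUDP and STS were added after their values were seen. Members and lists were chosen with earlier results of these data known. Alternatives were other filters, an offset, quantile normalization, no variance trend, array weights, the replicate number as a block, the compared groups alone and leaving out arrays. Recounts of list members and of the stretches under these settings were chosen after seeing the data.

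Array replicates have no read depth; their number, 3 a group, limits the precision.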

Additional observations from a re-analysis of the deposited data

Results flagged for a closer look

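The difference between the lines differed with and without tetracycline in 50 probe sets by the limma test of that difference, and the values below are log2 differences of the line differences (with minus without tetracycline) for the genes the text names among them, for which the explanation was not tested. It was positive for LAMB3 (4.02), LSMEM1 (3.19), SCARA5 (2.55), LGALS1 (1.89), DDIT3 (1.81), CDKN1A (1.45), ATF3 (1.42), NFIL3 (1.29), ACTA2 (1.28), GFPT1 (1.2) and FTL (0.763). It was negative for NPR1 (-2.98), PYCR3 (-2.79), OGFOD3 (-2.36), MYOM2 (-2.27), L3HYPDH (-1.98), CYP4X1 (-1.85), IRS4 (-1.42), PSIP1 (-1.35), NDUFA7 (-1.05), MRPS25 (-1.05) and DCXR (-0.82). Every one of these calls was lost when WT replicate 3 or any 1 mutant array with tetracycline was left out, where 0 probe sets were called by limma and 3083, 3291, 3276 and 3184 had an unadjusted p under 0.05 without WT replicate 3 and mutant replicates 1, 2 and 3.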

How the results depend on the processing

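The 7830 probe sets called with tetracycline became 5031 with the filter at the 75th percentile, which tests 13473, between 5183 and 9815 with 1 array left out, and 2884 without the replicate 3 arrays of all groups. That last setting left 1782 called without tetracycline, 1051 called in both treatments and 1693 called at least 2-fold; the 75th percentile filter left 1093 of the last. The 50 probe sets of the difference of the differences became 8 with no filter, 83 with an offset of 16, 14 with quantile normalization, 1 with no variance trend, 2981 with array weights, 176 with array weights by line, between 0 and 2813 with 1 array left out, and 0 without the replicate 3 arrays, where 1565 had an unadjusted p under 0.05. The cause was not tested. Of the probe sets called with tetracycline, 38.1% were higher in the WT line, against 47.1% with quantile normalization and 47.1% with the 75th percentile filter.

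The replicate numbers were not taken as pairing the arrays. The deviations of same-numbered arrays of the 2 lines with tetracycline correlated at 0.0064 to 0.0367. Between the treatments of a line they correlated at 0.333, 0.314 and 0.0647 (WT) and 0.218, 0.0815 and 0.349 (mutant) for numbers 1, 2 and 3, so not every pair was above 0.1. The block setting used the replicate number alone, shared by both lines, so pairs within a line were not fitted. With the replicate number as a block 8674 probe sets were called with tetracycline, 4415 without it, and 84 in the difference of the differences.

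Of 242 called genes followed by name, 148 kept direction and call under every setting run and 0 reversed. The setting that cost the most calls was leaving out the replicate 3 arrays (88), then leaving out WT replicate 3 (28) or WT replicate 2 (27). Of 49 list medians, 15 moved by more than the replicate spread with the mean of all probe sets of a gene, 14 with quantile normalization, 5 without the replicate 3 arrays and 3 with no filter.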
